A study of Mus musculus with 6 samples.

Results

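The Slc22 genes described here are 9 members of the solute carrier family 22, Slc22a5, Slc22a7, Slc22a18, Slc22a23, Slc22a26, Slc22a27, Slc22a28, Slc22a29 and Slc22a30, followed in mouse liver under 2 diets. They were chosen by name after the high-fat diet difference of Slc22a27 and Slc22a29 had been seen, so the diet values of the members, and whether the fit over all genes called them, are given as a description and support nothing. A member was measured where a probe set, the group of short probes that reads 1 transcript on the array, carries that symbol and no other. This held for 8 of the 9 members, with 11 probe sets, out of 18193 genes so measured in all. Slc22a28 has no such probe set, and its expression was not analysed here.

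Both groups were male C57BL/6 mice, an inbred laboratory strain, that entered the study at 8 weeks of age and ate their diet for 12 weeks. The Normal diet group ate a normal diet and the High fat diet group one with 60% of its calories from fat, with 6 mice in each. Liver RNA was hybridised to mouse whole-genome expression arrays from Affymetrix, with pools of 2 mice, so that each diet has 3 arrays (n = 3) and the array is the replicate. The labels do not number the mice of each pool, and the spread between arrays is a spread between pools, not between single mice. Levels are log2 expression values, on which 1 unit is a doubling. A difference is the high-fat mean minus the normal diet mean, given with its standard error (±, SE) from limma, fitted to all tested genes. The SE of a member's second or shared probe set came from a separate fit, described under the processing.

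SLC22 proteins are membrane carriers that take organic ions into cells or exchange them across the membrane, and the family is divided into carriers of cations, of carnitine and other zwitterions, and of anions. Hepatocytes use them to take drugs, toxins and metabolites from the blood, and the proximal tubule of the kidney uses them for secretion. Several of the anion carriers of rodents are known to differ between the sexes. Slc22a5 encodes OCTN2, the sodium-dependent carnitine importer, whose loss causes systemic carnitine deficiency. Slc22a7 encodes OAT2, an anion carrier of liver and kidney. Slc22a18 lies in an imprinted domain, Slc22a23 encodes an orphan carrier, and Slc22a26 to Slc22a30 are a rodent group of anion carrier-like genes.

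The genes of that last group, Slc22a26 to Slc22a30, follow each other on chromosome 19 in the gene table of assembly GRCm38.p6, in the order of their numbers, with only pseudogenes and a long noncoding RNA gene listed between them. Slc22a19 is the nearest coding gene on one side and Slc22a8 and Slc22a6 are the nearest on the other. Slc22a5 lies on chromosome 11, Slc22a7 on 17, Slc22a18 on 7 and Slc22a23 on 13. The promoter windows of Slc22a27 and Slc22a29 are shown because these are the members with higher levels under the high-fat diet, and that of Slc22a30, added after its likeness was seen, because it is the neighbour of Slc22a29 with lower levels. Each is 300 bases from RefSeq, 250 before to 50 after the start of the gene, on the minus strand of GRCm38.p6, with motif matches in capitals.
Slc22a27, chr19:7965978-7966277: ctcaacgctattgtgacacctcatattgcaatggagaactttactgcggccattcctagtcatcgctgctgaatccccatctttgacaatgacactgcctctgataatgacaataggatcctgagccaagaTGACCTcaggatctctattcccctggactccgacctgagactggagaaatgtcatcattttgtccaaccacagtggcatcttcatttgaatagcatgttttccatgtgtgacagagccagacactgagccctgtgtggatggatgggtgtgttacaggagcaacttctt
Slc22a29, chr19:8218851-8219150: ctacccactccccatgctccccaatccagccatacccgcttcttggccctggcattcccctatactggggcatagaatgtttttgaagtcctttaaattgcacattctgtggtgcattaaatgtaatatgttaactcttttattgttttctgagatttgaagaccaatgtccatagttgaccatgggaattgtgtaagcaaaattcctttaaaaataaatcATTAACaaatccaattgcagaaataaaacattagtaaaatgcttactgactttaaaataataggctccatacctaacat
Slc22a30, chr19:8405056-8405355: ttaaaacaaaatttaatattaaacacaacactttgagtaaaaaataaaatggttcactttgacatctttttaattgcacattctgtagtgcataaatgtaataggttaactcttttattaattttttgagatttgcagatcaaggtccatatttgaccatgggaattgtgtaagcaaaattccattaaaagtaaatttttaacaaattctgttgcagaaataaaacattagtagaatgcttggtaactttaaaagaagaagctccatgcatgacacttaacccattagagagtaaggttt

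The promoter window of Slc22a29 was closer to those of Slc22a28 and Slc22a30 than to that of Slc22a27. After global alignment 161 bases of the Slc22a27 window matched Slc22a29 (53.7% of the window), against 148 for Slc22a27 with Slc22a5 (49.3%), which lies on another chromosome. Slc22a29 and Slc22a30 shared 215 bases (71.7%), Slc22a29 and Slc22a28 217 (72.3%), and Slc22a28 and Slc22a30 288 (96.0%). The search, on both strands, was for a STAT site (TTCNNNGAA), an HNF1 half-site (GTTAAT), a nuclear receptor half-site (AGGTCA), an HNF4 core (CAAAGTCCA) and a TATA box (TATAAA). The Slc22a27 window held 1 nuclear receptor half-site, which starts 119 bases upstream and is present in 16.3% of all 32851 promoter windows. The Slc22a29 window held 1 HNF1 half-site 29 bases upstream (7.10% of windows), and Slc22a26 1 STAT site 141 bases upstream (8.30% of windows). No letters of these motifs were found in the windows of Slc22a5, Slc22a18, Slc22a23, Slc22a28 and Slc22a30. Windows with an HNF4 core made up 0.475% of all and those with a TATA box 13.6%. These matches are letters in a window and were not linked to binding.

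As background for all levels, the arrays within the high-fat group correlated at r = 0.994 to 0.995 across probe sets and those within the normal diet group at 0.982 to 0.991. Normal diet 3 stood apart on the first principal component of the tested genes, at -46.2 against -15.6 and -12.5 for the other normal diet arrays and 24.3 to 25.4 for the high-fat arrays. Hepatocyte markers marked the tissue as liver: all 7 measured were above the level filter on the arrays, at 12.34 or more. Kidney tubule, where several Slc22 genes are known to be expressed, had Umod, Slc12a1 and Lrp2 of its 8 markers below the filter. The other 5 passed it, among them Slc22a12 at 6.27 to 6.43 and Aqp2 at 5.34 to 5.86. Passing the filter alone therefore does not mark a tissue. Of these 5 tested markers limma called 0. Beside this and the marker counts that follow, 5.87% of all tested genes were called higher and 1.73% lower. The summed linear level of the 6 Kupffer cell markers was 1436 to 1859 under normal and 2370 to 2499 under high-fat diet, with 3 called higher. Such a sum follows the markers of highest level most, and Clec4f, Timd4 and Marco differed by only 0.07, -0.15 and -0.06. For the 6 stellate cell markers the sum was 1570 to 1667 and 2175 to 2490, with 2 called higher. Des, Hand2 and Rgs5 of this list differed by only -0.06, -0.09 and 0.07. For the 6 sinusoidal endothelial markers the sum was 926.3 to 1050 and 1074 to 1206, with 1 called higher, while Clec4g and Kdr differed by -0.06 and 0.07. For 3 exocrine pancreas markers the sum was 370.4 to 542.9 and 254.9 to 281.3, with 1 called lower. Of these Cela1 differed by -0.81, and Cpa1 and Ctrb1 by -0.22 and -0.09. The 7 hepatocyte markers summed to 90300 to 93580 and 84870 to 90010, with 1, Fgb, called lower. In whole liver RNA fewer cells of a type and less RNA per cell cannot be told apart, and the part of cell makeup in the member values was not tested.

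All 8 measured members passed the filter on low levels, as did 14071 of 18193 genes. Slc22a27 and Slc22a29 were higher under the high-fat diet, Slc22a7 was lower, Slc22a30 was lower by a small amount, and the other members differed little beside their spread. At a limma adjusted p below 0.05, Slc22a27 was called higher, Slc22a7 was called lower, and the other 6, Slc22a29 among them, were not called. Of all tested genes 7.60% were called, 5.87% higher and 1.73% lower. No array of one diet lay within the range of the other for 4 of the 8 members, Slc22a7, Slc22a27, Slc22a29 and Slc22a30, and for 35.8% of all tested genes. The median member difference was 0.02, with 4 members above and 4 below 0, beside a median of 0.003 over all tested genes. Because the members were chosen on this contrast, nothing is read from these counts.

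**Figure D1:**
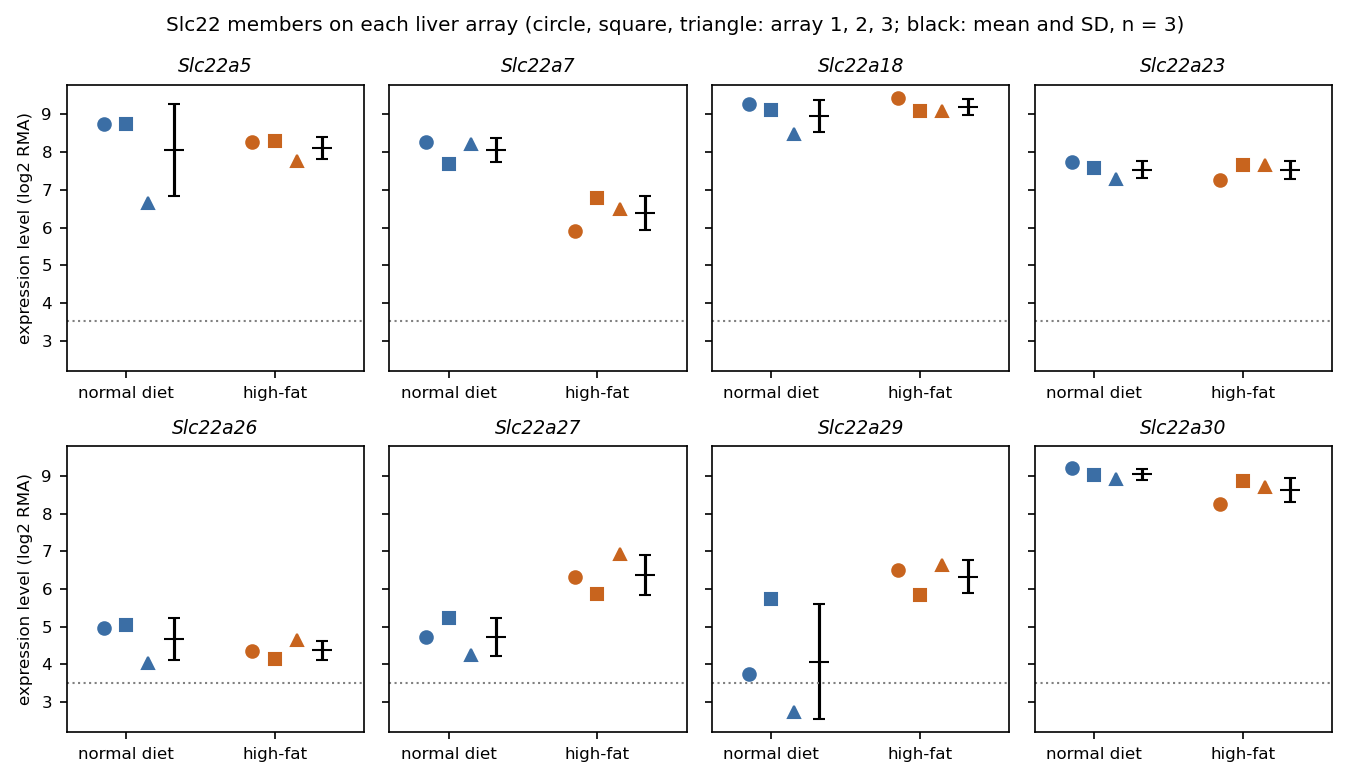
Expression level (log2 RMA) of the 8 measured Slc22 members on each array, normal diet in blue and high-fat diet in orange, with array 1, 2 and 3 as circle, square and triangle, the mean and SD (n = 3) in black and the level filter dotted. Slc22a7 falls from a mean of 8.06 to 6.40, Slc22a27 and Slc22a29 lie higher on every high-fat array, and Slc22a5 and Slc22a29 are low on normal diet 3, at 6.66 and 2.74.

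Among the anion carrier genes, Slc22a7 was read by 1 probe set, 1451460_a_at. Its level was 8.26, 7.69 and 8.22 on normal diet 1, 2 and 3 and 5.91, 6.79 and 6.49 on high-fat 1, 2 and 3. Every high-fat array lay below every normal diet array, and high-fat 1 was the lowest. The means were 8.06 ± 0.32 (SD, n = 3) and 6.40 ± 0.45, a difference of -1.66 ± 0.25 or 3.17-fold lower. The difference lay between -1.86 and -1.42 over all alternatives tried, and the call ended only without high-fat 3 (-1.71).

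Slc22a27 was read by the probe set 1419751_x_at, whose suffix means that some of its probes may match other transcripts. Its level was 4.72, 5.23 and 4.24 on normal diet 1, 2 and 3 and 6.33, 5.87 and 6.93 on high-fat 1, 2 and 3. The groups did not overlap, and normal diet 2 and high-fat 2 came closest to each other. The means were 4.73 ± 0.50 (SD, n = 3) and 6.37 ± 0.53, a difference of 1.64 ± 0.32 or 3.12-fold higher. The call ended with a replicate block (1.64), without normal diet 1 (1.64) and without high-fat 1, 2 or 3 (1.67, 1.90 and 1.37), while the difference stayed above 0 in every alternative tried.

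Slc22a29 had the largest difference of the measured members and the most uneven normal diet values. Its probe set, 1425222_x_at, carries the same suffix. Its level was 3.74, 5.75 and 2.74 on normal diet 1, 2 and 3 and 6.51, 5.84 and 6.64 on high-fat 1, 2 and 3. Normal diet 2 lay just under the lowest high-fat array, and normal diet 3 lay below the level filter of that array (3.59). The means were 4.07 ± 1.53 (SD, n = 3) and 6.33 ± 0.43, a difference of 2.26 ± 0.68 or 4.78-fold. The normal diet SD was larger than that of 99.8% of tested genes. Slc22a29 was not called with all arrays and was called without normal diet 2, where it differed by 3.09. Without normal diet 3 it differed by 1.59 and with array weights by 1.57, and it was not called.

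A further probe set, 1451635_at, is annotated to both Slc22a29 and Slc22a30, and its signal cannot be given to either gene. It read 4.28, 5.74 and 3.18 on normal diet 1, 2 and 3 and 6.88, 6.14 and 6.72 on high-fat 1, 2 and 3. These values resemble those of the Slc22a29 probe set and not those of the Slc22a30 probe set. Its difference was 2.18 ± 0.58, with no overlap of the groups.

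Slc22a30 went the other way from its neighbour. Its probe set, 1436162_at, read 9.21, 9.02 and 8.92 on normal diet 1, 2 and 3 and 8.26, 8.87 and 8.72 on high-fat 1, 2 and 3. The groups did not overlap, but high-fat 2 lay only just below normal diet 3. The means were 9.05 ± 0.15 (SD, n = 3) and 8.62 ± 0.32, a difference of -0.43 ± 0.17 or 1.35-fold lower. It was not called, with all arrays or in any alternative, and its difference lay between -0.56 and -0.26.

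Slc22a26, the first gene of the cluster, had overlapping groups on both of its probe sets. The one with the higher mean read 4.96, 5.04 and 4.04 on normal diet 1, 2 and 3 and 4.35, 4.14 and 4.64 on high-fat 1, 2 and 3. Normal diet 3 was its lowest array. The difference was -0.30 ± 0.27. The other probe set read 4.37, 4.27 and 3.65 and then 3.72, 3.36 and 4.20, a difference of -0.34 ± 0.25. Slc22a26 was not called with all arrays. Leaving out normal diet 3 gave -0.62, with a call, high-fat 3 left out gave -0.44, and array weights gave -0.53. Leaving out normal diet 1 (-0.16), normal diet 2 (-0.12) or high-fat 2 (-0.18) made it smaller, with no call.

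**Figure D2:**
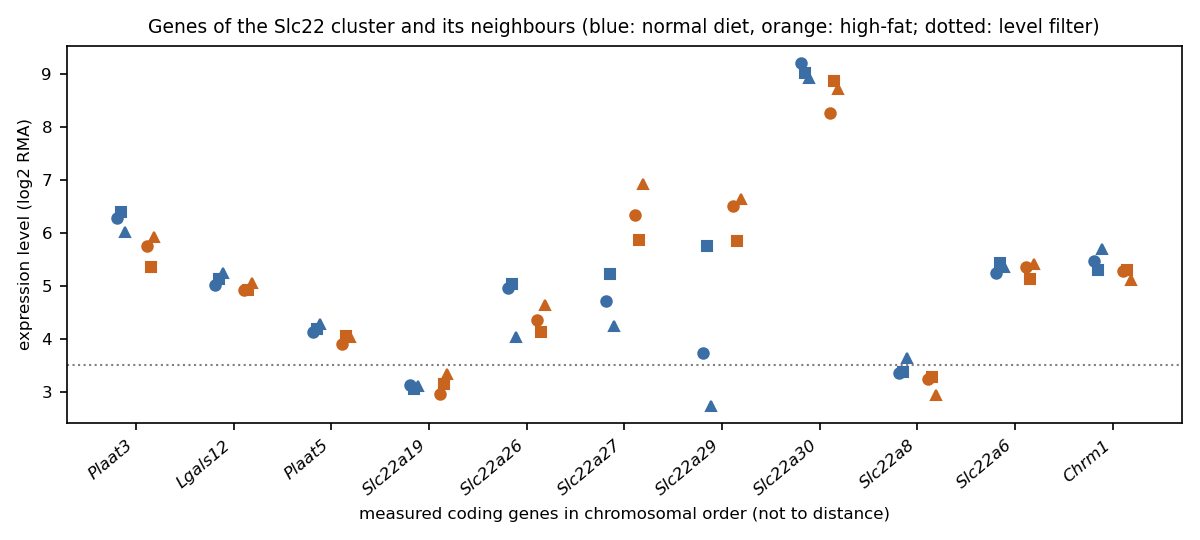
Expression level (log2 RMA) on each array of the measured coding genes of the chromosome 19 cluster and its neighbours, in chromosomal order and not to distance, normal diet in blue, high-fat diet in orange, symbols as array 1, 2 and 3. Levels can be compared between diets within a gene and not between genes: Slc22a27 and Slc22a29 lie higher under the high-fat diet (by 1.64 and 2.26) and Slc22a30 lies lower (by -0.43). The flanking genes differ less than Slc22a27, but Plaat3 (-0.55) differs more than Slc22a30.

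The genes on both sides of the cluster were not called. On the side of Slc22a26, Slc22a19 lay below the level filter on all 6 arrays, at 2.96 to 3.33, and was not tested, and the next coding gene, Plaat5, differed by -0.20 ± 0.098 (limma adjusted p = 0.223). Further out Plaat3 differed by -0.55 ± 0.17 (limma adjusted p = 0.097), more in size than Slc22a30 and Slc22a26, with groups that did not overlap. On the side of Slc22a30, Slc22a8, the gene of the renal anion carrier OAT3, lay above the filter on 1 of 6 arrays and was not tested. Slc22a6, the gene of OAT1, differed by -0.05 ± 0.11 (limma adjusted p = 0.815). Within each diet Slc22a27, Slc22a29 and the first probe set of Slc22a26 placed the arrays in the same order, normal diet 2 over 1 over 3 and high-fat 3 over 1 over 2. The other Slc22a26 probe set had normal diet 1 over 2. Of all tested genes 2.55% shared this order, which was compared after the values were seen.

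Slc22a5, the carnitine importer gene, showed no shared diet difference but a low value on 1 array. Its probe set 1450395_at read 8.76, 8.75 and 6.66 on normal diet 1, 2 and 3 and 8.27, 8.30 and 7.76 on high-fat 1, 2 and 3. The other probe set, 1421848_at, read 5.54, 5.85 and 3.88 and then 5.17, 5.44 and 4.51. On both probe sets normal diet 3 was the lowest array and high-fat 3 the next lowest, and the groups overlapped. The means were 8.06 ± 1.21 (SD, n = 3) and 8.11 ± 0.30, and the differences of the probe sets were 0.05 ± 0.53 and -0.05 ± 0.49. Without normal diet 3 the difference was -0.64, without normal diet 1 it was 0.41, and it was not called in any alternative. Quantile normalization (-0.08), array weights (-0.30) and leaving out high-fat 1 or 2 (-0.03 and -0.04) also turned its sign.

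The low value of Slc22a5 on normal diet 3 lay 2.09 below the mean of normal diet 1 and 2, that is at -2.09, and only 41 of 14071 tested genes lay further down on that array. Slc22a29 was at -2.01 by the same measure, with 46 genes further down. Of the 8 members 5 were lowest on normal diet 3, as were 28.0% of all tested genes. The same measure was taken, after the values were seen, in a list of 12 tested genes of carnitine synthesis and the carnitine shuttle into mitochondria, of which 9 were lowest on normal diet 3. Bbox1, whose product makes the last step of carnitine synthesis, lay at -0.86, Slc25a20, the gene of the mitochondrial carnitine carrier, at -0.82, and Cpt1a at -0.77. Crat, Crot and Slc25a29 were not lowest there. Normal diet 3 stood apart over many genes, and what set that array apart was not tested.

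Slc22a18 and Slc22a23 had overlapping groups. Slc22a18 read 9.27, 9.12 and 8.49 on normal diet 1, 2 and 3 and 9.45, 9.08 and 9.08 on high-fat 1, 2 and 3, a difference of 0.24 ± 0.21. Its other probe set differed by 0.21 ± 0.15, and without normal diet 3 the difference of the first was 0.01. Slc22a23 read 7.75, 7.57 and 7.30 and then 7.25, 7.67 and 7.65, a difference of -0.01 ± 0.16, which turned to 0.03 when arrays were centred on their medians. It was 0.12 when high-fat 1 was left out and 0.09 when normal diet 1 was. It ranged down to -0.14 when normal diet 3 was left out and -0.16 after quantile normalization. Neither was called in any alternative.

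**Figure D3:**
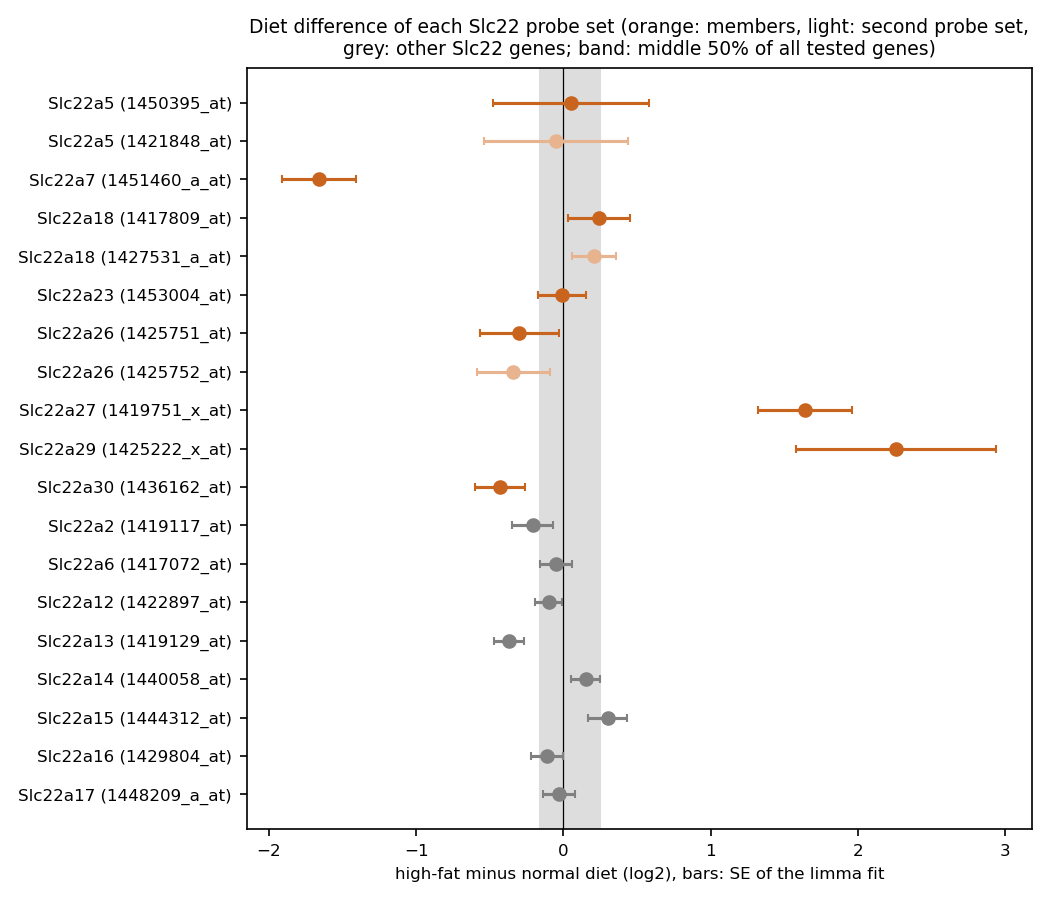
High-fat minus normal diet difference (log2, bars show the SE of the limma fit) of each Slc22 probe set, members in orange, their other probe sets in light orange and other tested Slc22 genes in grey, with the middle 50% of all tested genes (-0.16 to 0.25) as a band. Slc22a27 and Slc22a29 lie to the right at 1.64 and 2.26, Slc22a7 to the left at -1.66, and the 8 other Slc22 genes lie between -0.37 and 0.30.

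**Figure D4:**
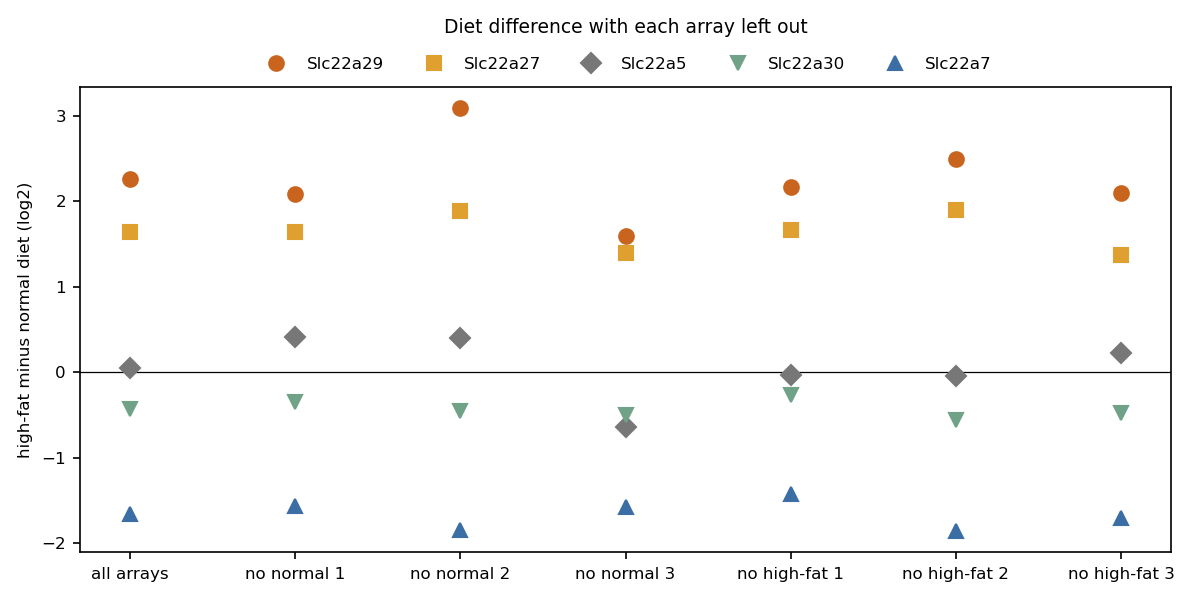
High-fat minus normal diet difference (log2) of 5 Slc22 members with all arrays and with each array left out in turn. Slc22a27 stays between 1.37 and 1.90 and Slc22a7 between -1.86 and -1.42, Slc22a29 ranges from 1.59 to 3.09, and Slc22a5 changes sign, from -0.64 to 0.41.

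Other tested genes of the family differed by 0.37 or less in size. Of 13 further Slc22 genes measured, Slc22a22, at 2.92 to 3.16 and below the level filter on all 6 arrays, stood in no list. Of the 12 listed 8 were tested, 0 were called by limma, and 2 had an unadjusted p below 0.05. Of all tested genes 7.60% were called, so 0 calls in so short a list says little. With the trend and robust variance model limma also called 0. Slc22a13, the gene of an anion carrier, had the smallest p, at -0.37 ± 0.10 (limma adjusted p = 0.0658), with groups that did not overlap, and the list had 1 call with array weights and 1 with probe sets averaged per gene. The median of the 8 was -0.07.

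Other carriers of organic ions differed in both directions. Of 17 tested uptake carriers 1 was called higher and 2 lower, with a median of -0.12. Slco1a1, an organic anion carrier gene, fell by 3.94 ± 0.43 on the log2 scale (limma adjusted p = 0.00508), and Slc17a3, a phosphate and urate carrier gene, fell by 0.99 ± 0.21 (limma adjusted p = 0.0339). Slc2a9, a urate carrier gene, rose by 0.76 ± 0.13 (limma adjusted p = 0.0184), but by 0.39 with the mean of its probe sets. Of 16 tested efflux pumps and exchangers 2 were called higher and 0 lower, with a median of 0.30. Over all tested genes 5.87% were called higher and 1.73% lower. Abcc4, the gene of the basolateral pump MRP4, rose from a mean of 4.35 to 6.30 (1.95 ± 0.36, limma adjusted p = 0.0226), and Abcb1a, a P-glycoprotein gene, from 4.50 to 5.97 (1.48 ± 0.19, limma adjusted p = 0.00883). Without any 1 high-fat array the uptake carriers kept 1 call, and the pumps had 1, 1 and 0 calls without high-fat 1, 2 and 3. Of the 12 carnitine genes and of 6 tested PDZ scaffold genes, whose products hold carriers at the membrane, limma called 0, also with the trend and robust variance model, with 1 and 2 at an unadjusted p below 0.05. The smallest p in these lists were those of Tmlhe (0.53 ± 0.19, limma adjusted p = 0.128) and Pdzk1 (0.36 ± 0.11, limma adjusted p = 0.0827). Among the carnitine genes 1 was called without normal diet 2.

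Regulators of liver genes and genes known to differ between the sexes were also counted. Of 21 tested liver transcription regulators 1 was called higher and 6 lower, with a median of -0.24, beside 5.87% and 1.73% of all tested genes. Onecut1 fell by 2.10 ± 0.16 (limma adjusted p = 0.00250), and so did the forkhead factor genes Foxa3 (-1.34 ± 0.16), Foxa1 (-1.27 ± 0.24) and Foxa2 (-0.94 ± 0.19). Hnf4a, a nuclear receptor of hepatocyte identity, fell by 0.69 ± 0.11 (limma adjusted p = 0.0138) and lost its call when probe sets were averaged per gene and without any 1 high-fat array. Of 16 tested male-biased genes 0 were called higher and 8 lower, with a median of -1.40, and Slco1a1 stands in this list too. Cyp7b1, an oxysterol hydroxylase gene, fell by 4.43 ± 0.58, C8b, a complement gene, by 2.28 ± 0.33, and Cyp4a12a by 1.71 ± 0.35. Of 20 tested female-biased genes 4 were called higher and 0 lower, with a median of 0.93. The calls were led by Sult1e1 (3.46 ± 0.39) and Cyp17a1 (2.44 ± 0.23), a steroid hydroxylase gene, then Rtn4 (1.79 ± 0.32, but 0.64 with the mean of its probe sets) and Ephx1 (1.02 ± 0.23). Over single left-out arrays the calls ranged from 2 to 4 for the regulators without normal diet 2 or any high-fat array, from 2 to 4 for the male-biased list without a high-fat array, and were 2 for the female-biased list without any high-fat array. Without normal diet 2 the male-biased list had 10 calls and the female-biased list 7. That array lay nearest to the high-fat arrays for several of these genes, here chosen after their values were seen, as it did for Slc22a29. Hsd3b5, a steroid dehydrogenase gene, read 9.21, 4.21 and 9.08 on normal diet 1, 2 and 3 and 2.93 to 3.58 under the high-fat diet. Cyp2b9 read 4.26, 9.83 and 2.82 and then 8.65 to 9.52. Other genes of these lists did not share this. Lpl read 6.18, 5.41 and 7.74 and then 8.09 to 8.46, with normal diet 2 furthest away. Sult1e1 read 5.66, 6.33 and 6.49 and then 9.04 to 10.52, with normal diet 3 nearest. The part of normal diet 2 in the Slc22a29 values was not tested beyond leaving it out. All animals were male.

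The neighbours of Slc22a18 and Slc22a5 were counted too. Of the first list 21.4% were called, beside 7.60% of all tested genes, 5.87% higher and 1.73% lower. Of 14 tested genes in and next to the imprinted domain 2 were called higher, Nadsyn1 (0.65 ± 0.15) and Cd81 (0.54 ± 0.11), and 1 lower, the noncoding Kcnq1ot1 (-0.43 ± 0.10). All 3 calls ended without normal diet 1 and without any 1 high-fat array, and leaving out normal diet 2 or using quantile normalization left that of Cd81. Leaving out normal diet 3 ended those of Nadsyn1 and Kcnq1ot1. Of 8 tested neighbours of Slc22a5 limma called 0 and 2 had an unadjusted p below 0.05, and the trend and robust variance model called 0 and array weights 1. Rad50 had the smallest p (0.45 ± 0.13, limma adjusted p = 0.0791). Across these lists 20 called genes are named. Leaving out high-fat 1, 2 or 3 kept the calls of 7, 7 and 5 of them. Leaving out normal diet 1, 2 or 3 kept 14, 15 and 18. None of the 20 changed sign in any alternative.

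**Figure D5:**
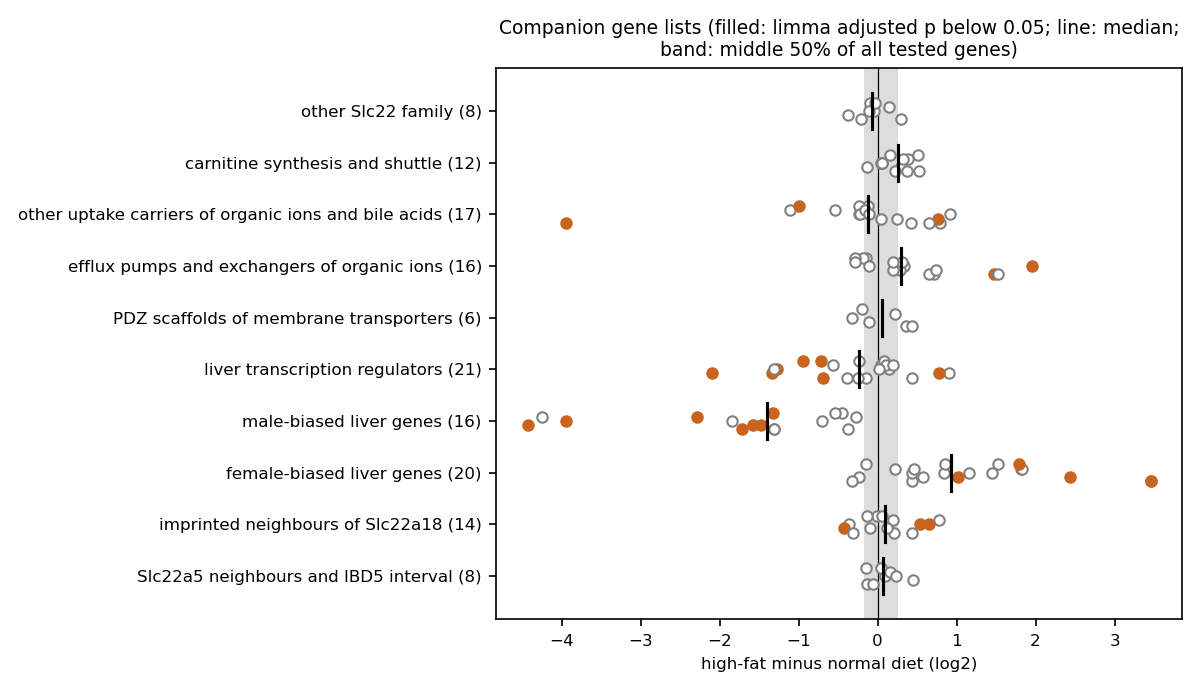
High-fat minus normal diet difference (log2) of every tested gene in 10 companion lists, filled where the limma adjusted p was below 0.05, with the list median as a line and the middle 50% of all tested genes as a band. The male-biased list has its median at -1.40 and the female-biased list at 0.93, while the median of the other Slc22 genes is -0.07.

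The genes most like Slc22a27 over the 6 arrays, by Pearson's r of the log2 levels, were Acad9 (0.996), Top1mt (0.993), Iftap (0.993), Hpse (0.992) and Pstpip2 (0.991). Acad9, an acyl-CoA dehydrogenase family gene, read 6.68, 6.89 and 6.39 on normal diet 1, 2 and 3 and 7.50, 7.16 and 7.67 on high-fat 1, 2 and 3. The genes most like Slc22a29 were Sqor (0.996), Vnn3 (0.995), Ccn2 (0.994), Acacb (0.993) and Elovl6 (0.992). Elovl6, a fatty acid elongase gene, read 9.05, 10.29 and 8.10 and then 10.55, 10.34 and 10.74, so that normal diet 2 lay near the high-fat arrays, as it did for Slc22a29. All points share the diets and the arrays, and 790 and 638 genes had r over 0.9 with Slc22a27 and Slc22a29.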

How the data were processed

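The authors deposited log2 expression levels per probe set, which per the submitters' processing notes were made with RMA (background correction, quantile normalization and probe summary) and version 1.0 of the Affymetrix Expression Console. RNA was extracted with TRIzol and labelled with biotin, per the labels' protocols. RMA compresses differences near background, so low levels understate a fold. The genome build was not given in the sources used here.

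After 64 control probe sets were left out, the platform annotation gave 1 symbol to 34945 of 45037 probe sets and several to 932, and 9160 stayed unnamed. The probe set of highest mean stood for each gene, and a gene was tested where it exceeded the array-wide 40th percentile on at least 3 of 6 arrays. limma 3.58.1 in R 4.3.3 (lmFit, eBayes, two-sided, Benjamini-Hochberg over 14071 genes) compared the diets, with calls at an adjusted p below 0.05. The fit was tested on simulated data. Arrays carry no depth, and their number limits the precision.

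The members and lists were chosen with earlier results of these data known. Genes named from a list were its up to 4 called genes with the largest difference, or otherwise the one with the smallest p, with Hnf4a whatever its result, and the 5 genes most like Slc22a27 and Slc22a29. Hsd3b5, Cyp2b9, Lpl, Bbox1, Slc25a20, Cpt1a, Crat, Crot and Slc25a29 were named outside this rule, after their values were seen. Of 178 list entries 155 matched a gene on the array, after 1 older name of a gene already in its list was dropped. Of the 9 members 8, all but Slc22a7, had a RefSeq promoter window. Those of Slc22a5 and Slc22a26 to Slc22a30 were aligned with Biopython 1.88. A protein comparison was planned and not made. Tables used Python 3.11.15, pandas 2.3.3 and matplotlib 3.10.9. Alternatives were other level filters, variance models, array weights, scalings, choices of probe set, the array number as a block, and leaving out single arrays.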

Additional observations from a re-analysis of the deposited data

How the results depend on the processing

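Over all genes 1070 were called, and 896 to 1470 under the other filters, variance models, scalings and choices of probe set. Leaving out 1 array gave 154 to 1241 (244, 197 and 154 without high-fat 1, 2 and 3). Of the calls 77.2% were higher, 66.6% after quantile normalization and 82.9% after median centring. Of the 8 tested members 2 were called, and 0 to 3 with 1 array left out, with 0 without high-fat 3. With a replicate block 1 member, Slc22a7, and 768 genes were called. Same-numbered arrays deviated together at r = -0.012, 0.036 and 0.100 over genes, and arrays of unlike number at -0.085 to 0.079. With 3 arrays per diet these values cannot show whether same-numbered arrays were handled together, which was not tested. Slc22a27 differed by 1.36 to 1.90 and Slc22a29 by 1.57 to 3.09 over all alternatives, while Slc22a5 and Slc22a23 changed sign. The block also left 5 of 8 male-biased calls and ended those of Nadsyn1, Cd81 and Kcnq1ot1. With 3 arrays per diet of pooled mice, the absence of a call says little about the smaller differences.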
